A study of Sus scrofa with 9 samples.

Results

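Double positive T cells of pig blood, which carry both CD4 and CD8, were set against the average of the fractions that carry either marker. The comparison used all 9 of the 9 arrays in the series. The double positive fraction (CD3+CD4+CD8+, called DP here), the CD4 fraction (CD3+CD4+) and the CD8 fraction (CD3+CD8+) each had 3 arrays (n = 3). All fractions came from mononuclear cells of sow blood, for which the labels name no treatment, separated on Percoll and sorted by surface marker. The labels call the arrays biological replicates, while the breed, age and number of the sows are not given in the sources used here. Nor is it given whether the gate of the CD4 fraction left out CD8+ cells, or that of the CD8 fraction CD4+ cells. Each array hybridised amplified cDNA from one sorted fraction, so a level describes the RNA of a cell mixture, and fewer cells of a type cannot be told apart from less RNA per cell.

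CD4 is the coreceptor that helper T cells use to recognise peptides on MHC class II, and CD8 is the coreceptor that cytotoxic T cells use on MHC class I. In most adult mammals the pair is expressed together mainly in the thymus, but in pigs mature T cells with both are common in blood. There they are mostly regarded as helper cells with earlier antigen contact, which carry CD8 as a pair of alpha chains and can make interferon gamma.

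The question was which genes of DP cells are not given by a blend of the single positive fractions, and it has more than one reading. The contrast tested was the DP mean minus the average of the CD4 and CD8 means on the log2 scale, which is an equal blend of logarithms. An equal mixture of the RNA itself averages linear signals, and that average lies above the log average whenever the fractions differ. A DP level above both single positive levels, or below both, is reached by no mixture in any proportion. The sorting markers and the named genes that passed are therefore given with the level of every fraction, the difference from the log average, and the place relative to both fractions. For some other genes the fraction levels are left out or given as a range. All levels are log2 signals relative to the 75th percentile of the array, at which the level is 0. They were not compared between genes, because probes differ in brightness.

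The array held 43603 probes, of which 6730 (15.4%) could be named, for 3052 genes. A probe was tested where some fraction had it well above background on each of its 3 arrays, which left 16024 probes, of which 3323 (20.7%) were named, for 1507 genes. Between 32.6% and 53.7% of probes were well above background per array. The 75th percentile itself ran from a signal of 15.2 on CD4 replicate 2 to 84.1 on CD4 replicate 1. The lowest level that a dim probe can show therefore differs between arrays. The arrays came from 3 slides. DP replicate 1 was alone on its slide, slide 2 held DP replicate 2, CD4 replicate 2 and CD8 replicates 1 and 2, and slide 3 held the other 4 arrays. Within slides 2 and 3, each with all 3 fractions, the contrast could be computed without replication.

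The sorting markers were higher in the fractions named for them, but each was also detected elsewhere. CD8A was well above background on all 3 CD4 arrays, and CD4 on 1 CD8 array. CD4 was at 2.78, 2.54 and 1.09 in DP, 2.35, 1.92 and 1.47 in the CD4 fraction and -3.27, -0.79 and -2.06 in the CD8 fraction. DP arrays overlapped the CD4 arrays and lay above every CD8 array. CD8A, the alpha chain of CD8, was at 4.32, 2.84 and 3.26 in DP, 0.29, 0.94 and -0.40 in the CD4 fraction and 5.81, 5.53 and 4.72 in the CD8 fraction. Here the DP arrays lay above every CD4 array and below every CD8 array. DP exceeded the log average by 2.20 for CD4 (SE 0.55, limma adjusted p = 0.177) and by 0.66 for CD8A (SE 0.43), and neither passed. On the linear scale the comparison differed: DP was 1.13 above the linear average for CD4 and -0.92 from it for CD8A.

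Against the average, 16 of the 16024 probes passed (0.0999%), by limma at a Benjamini-Hochberg adjusted p under 0.05 over every probe tested. Of these, 5 were higher in DP (0.0312% of those tested) and 11 lower (0.0686%). All 5 higher probes had a DP mean above both single positive means, all 11 lower probes had one below both, and none lay between. Every DP array was above the other 6 arrays for 3 of the 5, and below the other 6 for all 11, against 1.6% and 1.77% of all tested probes. The probes were chosen by their difference on these same arrays, so their positions are no further support for the calls. Over all tested probes the median difference was -0.02. An unadjusted p under 0.05 was reached by 986 probes (6.15%).

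**Figure D1:**
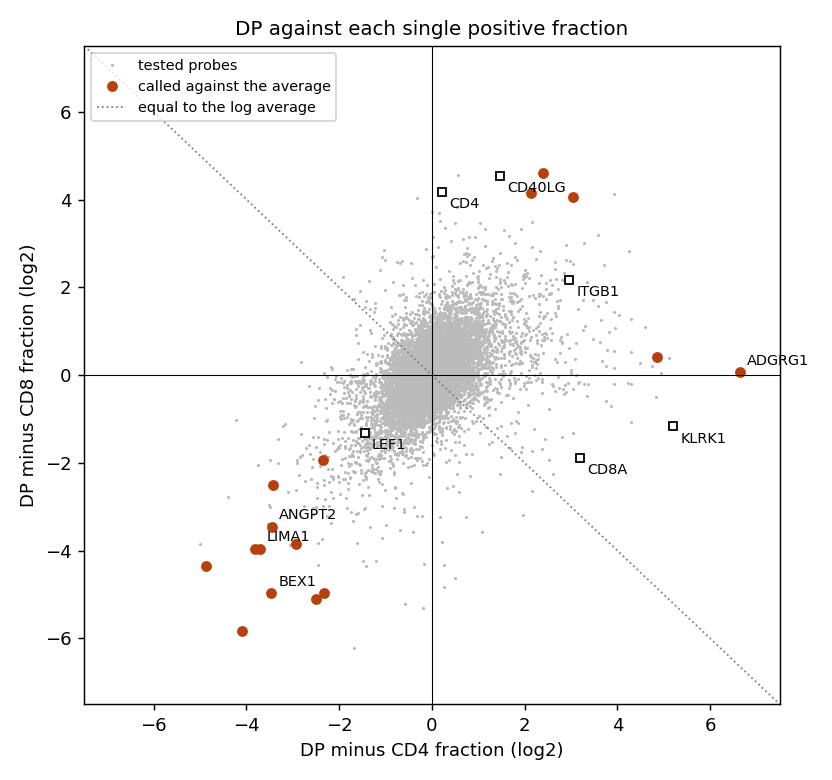
Difference of the DP mean from the CD4 fraction (x axis, log2) and from the CD8 fraction (y axis, log2) for each of 16024 tested probes (grey), with the 16 called against the average in orange, a few named genes as open squares, and the dotted line where DP equals the log average. The called probes lie in the upper right and lower left, outside both fractions, except that ADGRG1 and 1 unnamed probe lie close to the horizontal line where DP equals the CD8 fraction.

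The count of 16 rested on few arrays. It was 1 without DP replicate 1, 2 without CD8 replicate 2 and 5 without DP replicate 2. It was 9 without CD4 replicate 3, and 10 without DP replicate 3, CD4 replicate 1 or CD4 replicate 2. Without CD8 replicate 1 it was 26. With slide as a block 1 probe passed, in a fit to which DP replicate 1 adds nothing to the contrast. All 16 probes kept their sign in every alternative that tested them, and within slide 2 and slide 3. These reuse the arrays on which the probes were chosen, so a kept sign is no independent support.

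Of the 16 called probes, 4 were named. ADGRG1 rose and BEX1, LIMA1 and ANGPT2 fell, which is 0.265% of the 1507 genes when each is read by its brightest probe.

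ADGRG1 (also GPR56) encodes an adhesion receptor found on cytotoxic lymphocytes. It was at 6.27, 5.17 and 5.51 in DP, -0.20, -2.39 and -0.37 in the CD4 fraction and 5.55, 6.41 and 4.78 in the CD8 fraction. DP overlapped the CD8 fraction and stood far above the CD4 fraction. DP was 10.2-fold above the log average (log2 3.35, SE 0.52, limma adjusted p = 0.0291), and the difference was 3.38 within slide 2 and 3.26 within slide 3. Above the linear average it was 2.08-fold (log2 1.06). DP differed from the CD8 fraction by 0.07 (SE 0.60), so its level was not placed outside both fractions. The call was lost without any one DP or CD8 array (adjusted p from 0.0518 to 0.244), and kept without each CD4 array in turn (0.0324 to 0.0393). With normexp background correction the difference was 2.33 (adjusted p = 0.170), and against a blend of 1 part CD4 and 3 parts CD8 it was 1.71 (adjusted p = 0.371).

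BEX1 encodes a small protein best known from the nervous system. It was at -4.43, -4.57 and -3.63 in DP, 0.68, -1.53 and -1.37 in the CD4 fraction and 0.62, 1.04 and 0.63 in the CD8 fraction. All DP arrays were below the other 6, not well above background, and at the lowest signal of their array. DP was at least 3.88-fold below the log average (measured log2 -4.22, SE 0.58, limma adjusted p = 0.0196). The bound sets the mean of the single positive averages against the lowest signal that counts as well above background on the DP arrays. The call was lost without DP replicate 1 (adjusted p = 0.139), DP replicate 2 (0.0815) or CD8 replicate 2 (0.0635), and was kept without each of the other 6 (0.0275 to 0.0495).

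ANGPT2 encodes angiopoietin 2, a ligand of the vascular receptor TIE2. It was at -2.64, -3.16 and -3.63 in DP, 0.44, 0.20 and 0.30 in the CD4 fraction and -0.65, 1.38 and 0.19 in the CD8 fraction. No DP array was well above background and all were below the other 6. DP was at least 4.77-fold below the log average (measured log2 -3.45, SE 0.51, limma adjusted p = 0.0229). The call held without CD8 replicate 1 (0.0232) and was lost without any one of the other 8 arrays, with adjusted p between 0.0526 and 0.139.

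LIMA1 encodes an actin-binding protein of the cytoskeleton. It was at -4.43, -2.59 and -1.98 in DP, -0.13, 1.40 and 0.86 in the CD4 fraction and 2.25, 0.43 and 0.19 in the CD8 fraction. Its DP arrays were again all below the other 6 and not well above background. DP was at least 6.86-fold below the log average (measured log2 -3.83, SE 0.64, limma adjusted p = 0.0467). The call held without DP replicate 3 (0.0406) and was lost without any one of the other 8 arrays, with adjusted p between 0.0525 and 0.244.

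The low signals bear on these 3 genes directly. When dim signals were raised to the lowest signal well above background, an alternative chosen after seeing the data, BEX1 gave -2.08 (adjusted p = 0.141), LIMA1 -2.78 (0.0837) and ANGPT2 -2.25 (0.0971), and none passed. ADGRG1 still passed (3.09, adjusted p = 0.0279). With normexp correction the differences were -0.78 for BEX1 (adjusted p = 0.194), -0.85 for LIMA1 (0.323) and -0.73 for ANGPT2 (0.210). Among all 11 probes called lower, DP was dim on all 3 arrays for 7, dim on 2 arrays for 3, and well above background on all 3 arrays for 1. Of the 5 called higher, 2 had a single positive fraction with no array well above background. Only 2 of the 16 called probes were well above background on all 9 arrays.

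**Figure D2:**
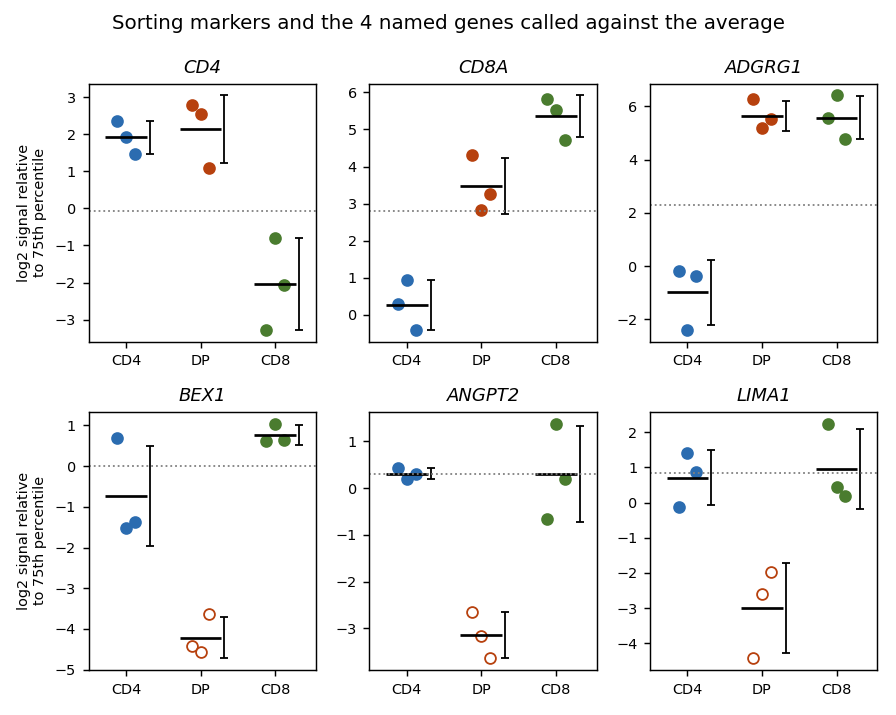
Levels of the sorting markers and of the 4 named genes called against the average, by fraction (y axis, log2 signal relative to the 75th percentile of the array). Points are arrays, open where no array of the fraction was well above background, thick lines are means, error bars are SD (n = 3) and the dotted line is the log average of the CD4 and CD8 fractions. DP points lie at the CD8 level for ADGRG1 and below every other array for BEX1, ANGPT2 and LIMA1.

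The other 12 called probes have no gene name here. The largest differences upward were of probe A_72_P630178, at 1.58, 0.71 and 0.46 in DP, -1.51, -2.48 and -2.39 in the CD4 fraction and -2.78, -2.46 and -4.19 in the CD8 fraction, at least 6.43-fold (limma adjusted p = 0.0291), and of probe A_72_P141696. The latter was at 3.25, 2.26 and 2.75 in DP, 0.09, 1.17 and -0.22 in the CD4 fraction and -0.42, -2.68 and -2.44 in the CD8 fraction (3.50, SE 0.54, adjusted p = 0.0291). Both had every DP array above the other 6. A_72_P630178 was well above background on 3 DP arrays, 1 CD4 array and no CD8 array, so it was tested only through DP. A_72_P141696 was well above background on only 1 CD8 array. Downward, probe A_72_P086236 was at -4.43, -4.57 and -3.63 in DP, 0.08, -0.68 and 0.25 in the CD4 fraction and 1.16, 1.94 and 1.79 in the CD8 fraction, at least 6.50-fold (adjusted p = 0.00127). Probe A_72_P408628 differed by at least 7.12-fold (adjusted p = 0.0229). On every DP array both signals were not well above background.

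The stricter question, whether DP lay outside both fractions, took the larger p of the DP against CD4 and DP against CD8 tests. No probe passed by limma with Benjamini-Hochberg adjustment, and the smallest adjusted p was 0.0555, for probe A_72_P086236. An unadjusted p under 0.05 was reached by 300 probes (1.87%), 131 with DP above both (0.818%) and 169 below both (1.05%). Of the 16 probes called against the average, 14 were among these. The other two were ADGRG1 (unadjusted p = 0.908) and a probe at the CD8 level (0.405). Alternatives gave 0 to 3 probes.

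Counted by position alone, with no test, the DP mean lay above both fractions for 31.1% of probes, below both for 35.6% and between them for 33.3%. Over the 1507 genes by their brightest probe, the shares above, below and between were 33.3%, 32.2% and 34.4%. All DP arrays were above the other 6 for 34 genes (2.26%) and below them for 35 (2.32%). The genes described next did not pass against the average in the main fit, which has no replicate block. With such a block some of them passed, as listed in the last paragraph. Those with the smallest p in each direction were taken by rule, and other list members named were chosen after their values were seen.

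Among surface molecules of antigen-experienced T cells, ITGB1 stood furthest from both fractions. ITGB1, the integrin beta 1 chain (CD29), was at 6.46, 6.22 and 5.52 in DP, 2.81, 4.07 and 2.42 in the CD4 fraction and 4.87, 3.93 and 2.91 in the CD8 fraction. All DP arrays lay above the other 6, on each of its 6 probes. DP differed from the average by 2.56 (SE 0.47, limma adjusted p = 0.0828), with the 6 probes between 2.32 and 2.79, and the unadjusted p for lying outside both was 0.0016. Without CD8 replicate 1 it passed (0.0433).

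FAS, the death receptor CD95, was at 2.45, 2.41 and 2.02 in DP, -0.20, 0.38 and -0.52 in the CD4 fraction and 1.24, 1.05 and -0.83 in the CD8 fraction. ANXA2, the membrane-binding annexin A2, was at 3.37, 3.11 and 2.54, then 1.61, 1.95 and 0.58, then 0.02, 0.67 and 0.68 in the same order. Both had every DP array above the other 6, on 2 of 2 and 3 of 3 probes. The differences were 2.10 for FAS (SE 0.47, adjusted p = 0.140) and 2.09 for ANXA2 (adjusted p = 0.0828). LGALS1, which encodes galectin 1, was at 2.15, 1.66 and 1.12 in DP, -1.27, -1.38 and -1.13 in the CD4 fraction and 1.46, 0.31 and 0.38 in the CD8 fraction (1.92, adjusted p = 0.121). Its DP arrays overlapped the CD8 arrays.

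CD40LG encodes the ligand by which helper T cells activate B cells. It was at 5.05, 4.12 and 3.19 in DP, 2.68, 3.09 and 2.18 in the CD4 fraction and 0.91, -0.81 and -1.35 in the CD8 fraction. The lowest DP array was above the highest CD4 array by a narrow margin. The difference from the average was 3.01 (SE 0.53, limma adjusted p = 0.0678), the smallest adjusted p among named genes that did not pass, and 2.31 from the linear average. From the CD4 fraction alone it was 1.47 (SE 0.61). It passed without DP replicate 3 (0.0406) and without CD8 replicate 1 (0.0285).

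KLF4, a zinc finger transcription factor linked to T cell quiescence, was at 2.76, 3.41 and 3.75 in DP, 2.49, 2.95 and 2.10 in the CD4 fraction and 0.28, 0.52 and -0.32 in the CD8 fraction (1.97, SE 0.37, adjusted p = 0.0828). DP overlapped the CD4 fraction on this probe, and DP means were above both on all 7 probes. CCR2, a receptor for inflammatory chemokines, was at 1.31, 1.48 and 1.00 in DP, -0.62, -1.08 and -0.55 in the CD4 fraction and 0.06, -2.34 and -0.64 in the CD8 fraction (2.13, SE 0.50, adjusted p = 0.159). All DP arrays lay above the other 6. CGA, the alpha subunit of pituitary glycoprotein hormones, was at 1.41, 0.46 and 0.50 in DP and between -2.90 and -1.0 on the other arrays (2.45, SE 0.52, adjusted p = 0.123). CGA was well above background on 1 CD4 array and on no CD8 array, so no fold is given.

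IFNG, which encodes interferon gamma, was at 1.85, 1.21 and 1.28 in DP, -3.09, -2.45 and -2.99 in the CD4 fraction and 1.81, 0.91 and 0.05 in the CD8 fraction. DP overlapped the CD8 fraction and was above every CD4 array (difference from the average 2.41, SE 0.45, limma adjusted p = 0.0828). Without CD8 replicate 1 it passed (0.0438). S1PR5, the receptor through which effector lymphocytes sense sphingosine phosphate, was at 3.51, 1.75 and 1.54 in DP, -2.13, -3.11 and -2.77 in the CD4 fraction and 1.95, 3.34 and 1.35 in the CD8 fraction (2.50, adjusted p = 0.129). IFNG and S1PR5 were each well above background on only 1 CD4 array, so both differences rest on dim CD4 signals. With normexp correction they were 0.83 for IFNG (limma adjusted p = 0.348) and 1.04 for S1PR5 (0.812).

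In the other direction, LEF1 and CCR7 were below both fractions without passing. LEF1, a factor that keeps T cells in the naive state, was at 6.68, 6.71 and 7.19 in DP, 7.80, 8.71 and 8.43 in the CD4 fraction and 7.90, 8.66 and 7.96 in the CD8 fraction. All DP arrays were below the other 6, on 3 of 3 probes. The difference was -1.38 (SE 0.31, limma adjusted p = 0.135). CCR7, the chemokine receptor that guides T cells into lymph nodes, was at 2.45, 2.72 and 2.33 in DP, 3.68, 3.92 and 4.34 in the CD4 fraction and 2.82, 3.01 and 3.34 in the CD8 fraction (-1.02, SE 0.31, adjusted p = 0.323).

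The next genes by the rule in this direction encode enzymes. SCD, the stearoyl-CoA desaturase that makes monounsaturated fatty acids, was at 1.74, 0.44 and 0.41 in DP, 2.73, 2.33 and 2.46 in the CD4 fraction and 4.73, 4.49 and 2.89 in the CD8 fraction. The difference was -2.41 (limma adjusted p = 0.0828), all 6 of its probes had DP below both means, and it passed without CD8 replicate 3 (0.0482). ALDH2, the mitochondrial aldehyde dehydrogenase, was at -0.58, -0.79 and -1.32 in DP, 1.20, 1.26 and 0.50 in the CD4 fraction and 1.09, 0.98 and 0.26 in the CD8 fraction (-1.77, adjusted p = 0.135). AGPAT4, an acyltransferase of phospholipid synthesis, was at -3.22, -1.71 and -2.19 in DP, 0.33, 0.02 and 0.51 in the CD4 fraction and -0.54, -0.40 and -1.42 in the CD8 fraction (-2.12, adjusted p = 0.143). On the probes shown, all 3 had every DP array below the other 6. Over all probes of each gene this held for 3 of 6 of SCD, 4 of 8 of ALDH2 and 1 of 2 of AGPAT4, and the ALDH2 probes ran from -1.77 to -0.59, with DP below both on 7 of 8.

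Both remaining genes of the rule were dim in DP. LCORL, a nuclear factor, was at -3.59, -4.22 and -2.61 in DP and between -1.97 and 0.89 elsewhere, at least 3.05-fold lower (adjusted p = 0.0828). CDH1, the adhesion molecule E-cadherin, was at -4.43, -4.57 and -3.63 in DP, which are the lowest signals of those arrays, and between -2.83 and 0.18 elsewhere. The bound was at least 1.73-fold (adjusted p = 0.0911).

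**Figure D3:**
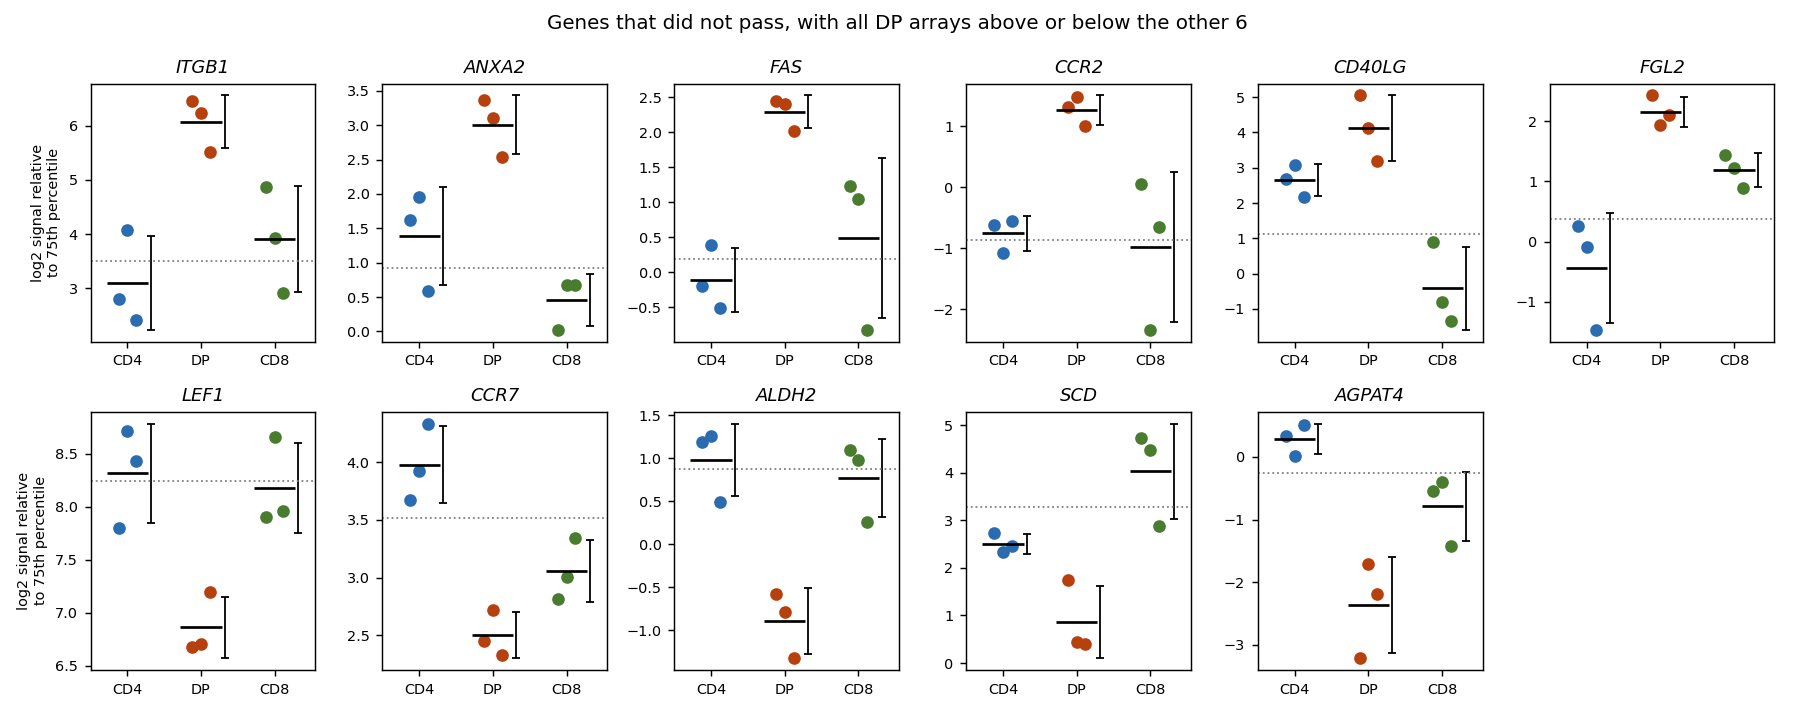
Levels of 11 genes that did not pass against the average and whose 3 DP arrays were all above (upper row) or all below (lower row) the other 6 arrays (y axis, log2 signal relative to the 75th percentile). Points are arrays, thick lines are means, error bars are SD (n = 3) and the dotted line is the log average of the CD4 and CD8 fractions. ITGB1 and FAS stand clear of both fractions, while CD40LG stands nearer the CD4 fraction and FGL2 nearer the CD8 fraction.

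Groups of genes were read as counts and medians from lists of marker genes, each gene by its brightest probe. The lists and their members were chosen with earlier results of these data known. Their counts and medians are therefore descriptions and not independent support. Of 1507 genes, 0.265% were called and the median difference was 0.01. Over the same genes the DP mean lay above both fractions for 33.3% and below both for 32.2%. Counts of list members above or below both are to be read beside these shares. ADGRG1 was the 1 list member called in any of the 18 lists. With normexp correction the medians kept their sign but were smaller for several lists, at 0.90 and not 1.75 for memory and adhesion, 0.85 and not 1.30 for helper molecules and -0.50 and not -0.76 for naive genes. They were 0.49 and not 1.17 for cytotoxic genes, 0.45 and not 1.14 for chemokines and 0.46 and not 2.12 for cytokines. Of the 10 tested genes of memory and adhesion, DP lay above both fractions for 9 and between for 1 (CD58), with a median of 1.75. S100A11 (2.48, SE 0.95) and S100A6 (1.61, SE 0.65), calcium-binding proteins of activated cells, were among them, with arrays that overlapped. S100A11 was well above background on only 1 CD4 array. Leaving out each array in turn gave medians of this list from 1.38 to 2.11.

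Helper molecules were above both fractions for 5 of 6, with a median of 1.30. ICOS (1.23, SE 0.45) and CD28 (0.94, SE 0.39), costimulatory receptors, GATA3 (1.37, SE 0.55), the factor of type 2 helper cells, and IL6R (1.92, SE 0.57) stood there with CD40LG. Those differences are from the average. From the CD4 fraction alone DP differed by 1.31 for ICOS (SE 0.52) and 0.41 for CD28 (SE 0.45). For GATA3 it was 0.38 (SE 0.64) and for IL6R 0.15 (SE 0.65). DP arrays overlapped the CD4 arrays for ICOS, CD28, GATA3 and IL6R. IL6R was well above background on only 1 CD8 array. IL6ST, the signalling partner of IL6R, lay between (0.98). The medians without each array were from 1.17 to 1.49.

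Naive and central memory genes had a median of -0.76, the lowest among the lists with at least 3 tested genes. DP was below both for 4 of 6, among them LEF1, CCR7 and MYC, and above both for IL7R (0.32) and KLF2 (0.18). The medians without each array ran from -0.88 to -0.67. Without DP replicate 1, CD4 replicate 3 or CD8 replicate 3, 1 gene and not 2 was above both.

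Cytokine, chemokine and MHC class II lists had positive medians. Of 5 cytokine genes, IFNG, TNF (2.31, SE 0.76) and IL10 (2.12, SE 0.96) were above both, IL5 lay between and TGFB1 below (-0.36), with a median of 2.12, which was 1.34 with the floor on dim signals. IL10 was well above background on only 1 CD4 array. Of 8 chemokine genes, 6 were above both, with a median of 1.14. CCL4, a chemokine of activated lymphocytes, was among them, at least 2.61-fold above the log average (measured log2 1.99, SE 0.73). It was well above background on no CD4 array and on 2 DP arrays. DP was 0.33 above the CD8 fraction for CCL4 (SE 0.85), and their arrays overlapped. The 6 became 3 without DP replicate 2 and 2 without CD8 replicate 3.

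Of 8 MHC class II genes, which present peptides to CD4+ cells, DP was above both for 6 and between for 2, with a median of 1.19. SLA-DQB1, a class II beta chain, was at 6.24, 5.0 and 6.03 in DP, 3.11, 2.22 and 2.95 in the CD4 fraction and 6.77, 4.61 and 5.54 in the CD8 fraction. DP overlapped the CD8 fraction (1.56 from the average, SE 0.46, limma adjusted p = 0.298). The count above both was 3 without DP replicate 1 and 1 without CD8 replicate 2.

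The cytotoxic list shows what the choice of scale does. Of 10 genes, 4 were above both and 6 between, with a median of 1.17 from the log average but 0.03 from the linear average. Above both were ADGRG1, S1PR5, GZMK (2.15, SE 0.99) and FCGR3A (1.77, SE 0.46), an Fc receptor of killer cells. GZMK was well above background on only 1 CD4 array. Between were KLRK1, NKG7, HCST and the granzymes GZMH, GZMB and GZMM. Without DP replicate 1, 2 genes and not 4 were above both, and the median was 0.78. For memory and adhesion genes the median against the linear average was 1.50, and for helper molecules 1.04.

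Natural killer receptors had a median of -0.68 over 4 genes, from -2.24 for CD96 through FCER1G (-1.20) and TYROBP (-0.16), both signalling adaptors, to 2.02 for KLRK1. CD96, a receptor of natural killer and T cells, was dim in DP and in the CD4 fraction alike and at 1.74, 2.65 and 1.36 in the CD8 fraction (-2.24, adjusted p = 0.160), so no fold is given. The median was 0.05 without DP replicate 2 and -1.45 without DP replicate 3.

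Lineage transcription factors had a median of 0.17 over 6 genes, cell cycle genes 0.31 over 3 with BIRC5, an inhibitor of cell death made in dividing cells, at 1.80 (SE 0.74), interferon genes 0.24 over 9 with GBP1 at 0.85, and early and heat shock genes 0.02 over 7 with HSPH1 at 0.71. The receptor complex list, with CD3 chains, had 0.06 over 8. Single arrays moved these small medians. Leaving out each array gave -0.08 to 0.38 for lineage factors, with the sign turned without CD8 replicate 3, and 0.12 to 0.42 for cell cycle genes, the lowest without CD4 replicate 1. It gave 0.09 to 0.39 for interferon genes, without DP replicates 2 and 3. The range was -0.10 to 0.47 for early and heat shock genes, below 0 without DP replicate 1, CD4 replicate 3 or CD8 replicate 3. For the receptor complex it was -0.15 to 0.54, below 0 without DP replicate 1 or CD8 replicate 2. None of the 4 named inhibitory receptors was tested.

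**Figure D4:**
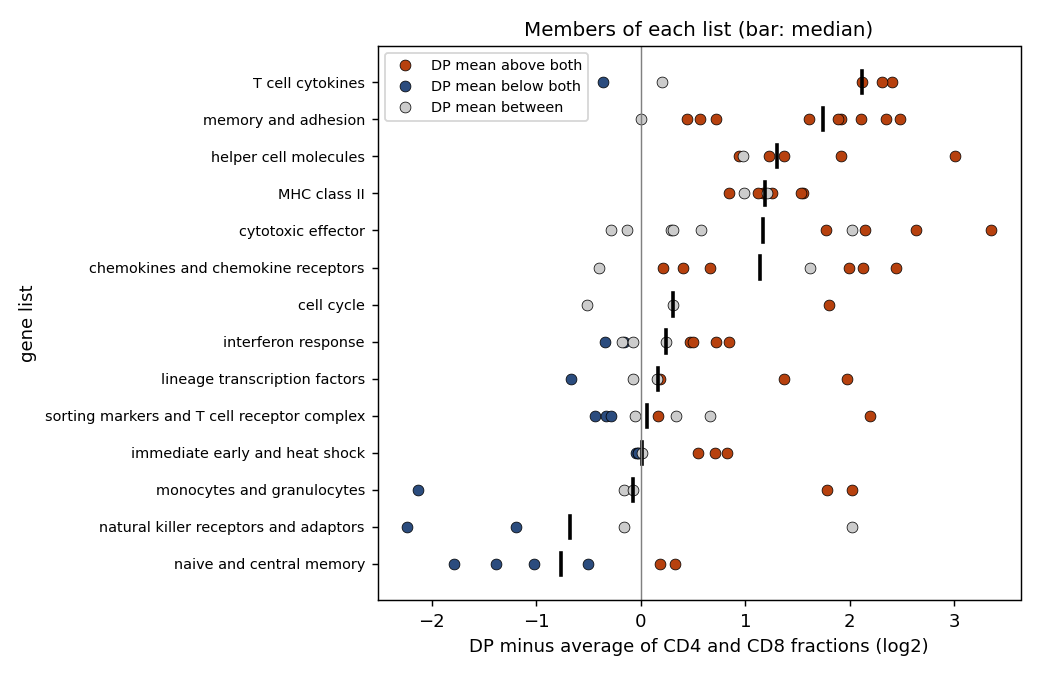
Difference of DP from the log average (x axis, log2) for each tested member of the 14 lists with at least 3 tested genes (y axis), by the position of the DP mean above both fractions (orange), below both (blue) or between (grey), with the median as a bar. Memory and adhesion genes lie almost all to the right and above both, and the naive list has the lowest median.

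Markers of other blood cells were read on the same scale. CD79A, part of the B cell receptor and the 1 tested gene of 12 in the B cell list, was at 0.48, -1.50 and 0.86 in DP, -0.10, -0.04 and 0.64 in the CD4 fraction and 3.50, 2.39 and 3.56 in the CD8 fraction. DP overlapped the CD4 fraction and every CD8 array was higher (-1.71 from the average, SE 0.52, limma adjusted p = 0.328). MHC class II genes, which B cells also express, had a DP level near that of the CD8 fraction, while CD79A had one near that of the CD4 fraction. The part of B cells in these levels was not tested.

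Of 15 monocyte and granulocyte genes, 5 were tested, with a median of -0.07. Its sign turned without DP replicate 1 (0.21), DP replicate 2 (0.38), CD4 replicate 1 (0.22) or CD8 replicate 3 (0.19), and with quantile normalization (0.08). It was -0.75 without DP replicate 3, -0.25 without CD4 replicate 2 and -0.34 without CD8 replicate 2. FGL2, a fibrinogen-like protein of monocytes and T cells, was at 2.43, 1.94 and 2.09 in DP, 0.27, -0.10 and -1.47 in the CD4 fraction and 1.44, 1.23 and 0.89 in the CD8 fraction (1.78, SE 0.42, adjusted p = 0.159). CD86, a costimulatory ligand of antigen-presenting cells, was above both means too (2.02, SE 0.58). S100A12 (-2.13) and LYZ (-0.07), granule proteins of myeloid cells, were not. ID3, the 1 tested gene of the gamma delta list, was at -0.67, and at -0.04 without DP replicate 1. GP9 of platelets was at 0.31, and at 0.08 without CD8 replicate 2, and the other platelet gene tested, ITGA2B, at -0.02. Their part in the differences was not tested.

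A blend can also be read from genes that separate the CD4 from the CD8 fraction. There were 70 such probes (0.437% of those tested), chosen without the DP arrays' direction although all 9 arrays share one estimate of spread. The DP mean lay between the fractions for 48, above both for 19 and below both for 3. Of 52 probes higher in the CD8 fraction, DP was nearer the CD8 level for 42. Of 18 higher in the CD4 fraction, DP was nearer the CD4 level for all 18. DP thus stood on the side of the higher fraction for 60 of the 70. An equal mixture of linear signals also lies nearer the higher level on the log scale, so this tally does not bear on whether a blend describes DP.

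The 20 named genes among them spread along the whole axis, where 0 is the CD4 level and 1 the CD8 level. KLF4 was at -0.34, CD4 at -0.06, IL6R at -0.04 and IL6ST at 0.20. CD8A was at 0.63, CCL5, a chemokine of effector cells, at 0.80 and KLRK1, an activating receptor, at 0.82. ADGRG1 was at 1.01, S1PR5 at 1.09 by its brightest probe and IFNG at 1.14.

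Expressed as the share of CD8 fraction RNA that a linear mixture would need, the genes gave different values. CD8A needed 24.9%, with 17.8% to 31.8% when each array was left out in turn. GZMH, a granzyme, needed 22.5%, IL6ST 39.9%, KLRK1 43.8%, CCL5 46.6% and SLA-DRA, a class II alpha chain, 71.4%. No share is given for CD96 and UCHL1, which were not well above background on any DP or CD4 array. ADGRG1 needed 105% (79.5% to 141%) and IFNG 147% (106% to 206%), although the DP and CD8 arrays of both overlapped. IFNG differed from the CD8 fraction by 0.52 (SE 0.52) and was not placed outside both fractions (unadjusted p = 0.337). CD4 needed -17.5%, with -71.6% to 7.43%. SLA-DRA had a range of 55.8% to 112%. These ranges show what single arrays decide and are not confidence intervals, and the differences between genes in this share were not tested.

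**Figure D5:**
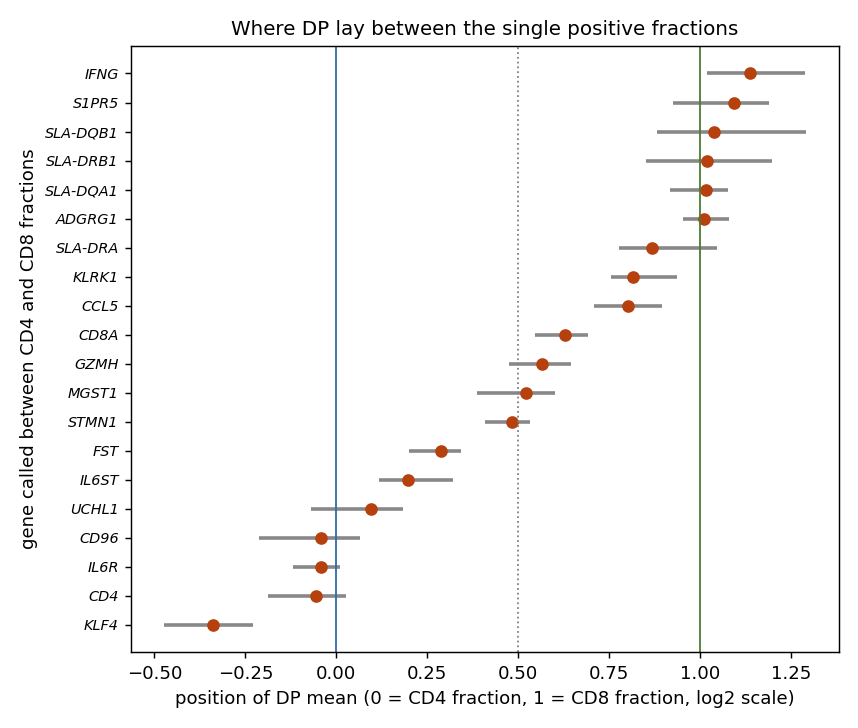
Position of the DP mean (x axis) between the CD4 fraction (0, blue line) and the CD8 fraction (1, green line) on the log2 scale for the 20 named genes called between those fractions (y axis). Orange points are the value from all 9 arrays, grey bars the range when each array is left out in turn, and the dotted line the log average; CD96 and UCHL1 were not well above background in DP or the CD4 fraction. CD4 and IL6R lie at the CD4 fraction, CD8A lies between, and ADGRG1 and class II genes lie at the CD8 fraction.

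Other proportions changed which probes passed. Against 3 parts CD4 and 1 part CD8 on the log scale, 33 probes passed (20 higher, 13 lower), of which 14 were among the 16. Against 1 part CD4 and 3 parts CD8, 24 passed (7 higher, 17 lower), of which 13 were among the 16. ITGB1 passed against the first (adjusted p = 0.0491) and CD40LG against the second (0.0192).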

How the data were processed

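Per the file headers, the scanner files came from Agilent Feature Extraction 11.0.1.1 and hold processed signals, a deposited intensity on a linear scale that is background-corrected but not normalized between arrays. The authors' deposited table of processed values is on a log2 scale with a median of 2.60 and served as an alternative. The sources used here do not give the program behind it. Here log2 of the processed signal minus the 75th percentile of each array over non-control probes was used, without outlier spots (1 to 12 per array), and none was saturated. Tested probes had at least 2 values per fraction and were well above background on each of the 3 arrays of some fraction. Probes were named by accession through the Sscrofa11.1 annotation. Coordinates are left out, since no build is named in the files.

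All 9 arrays entered 1 fit with limma 3.58.1 in R 4.3.3 (lmFit, eBayes with a variance trend), two-sided, with Benjamini-Hochberg adjustment at 0.05 and no block. A probe outside both fractions took the larger of its p-values. The code was tested on simulated data. Named genes were the sorting markers, called genes, the genes with the smallest p up to 10 per direction, and the leading member of each of 18 lists; other list members were chosen after their values were seen. Some items that the rule would name are not reported here. Members and lists were chosen with earlier results of these data known. Alternatives covered background, scaling, filter, variance trend, blocks, blend proportions, the processed table and each array left out. Normexp (offset 50) used median signals because the files hold no mean signal. The files give no depth, and 3 arrays per fraction limit the precision.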

Additional observations from a re-analysis of the deposited data

How the results depend on the processing

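The 16 probes called against the average became 1 with normexp background correction, 8 with quantile normalization and 8 with the processed table. They became 62 without the filter on dim probes (43603 tested). Of 11154 probes detected on all 9 arrays, 0 passed by limma and 529 reached an unadjusted p under 0.05. Only 2 of the 16 were among those 11154. The count was 29 without the variance trend, 1 with slide as a block and 33 against 3 parts CD4 to 1 part CD8. The added floor on dim signals gave 8. Leaving out each array gave 1 to 26. Probes outside both fractions numbered 3 without the filter, 1 without the variance trend and 0 to 1 with an array left out. CD8A turned to -0.61 against 1 part CD4 to 3 parts CD8. The cause of these changes was not tested, beyond the number of probes and arrays each uses.

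Same-numbered arrays share a number in the labels and in the names of the scanner files. Their deviations from the fraction means correlated above 0.1 in 7 of 9 pairs (r from -0.07 to 0.65). Of the 9 arrays, 5 correlated best with their own number in both other fractions. The labels do not say whether same-numbered arrays share a sow, and these values do not settle it. The main fit used no block, so any such pairing was left out of it. A replicate block raised the calls to 58 (31 higher, 27 lower), with the 16 among them, and gave 0 outside both. Among genes named as not passing, 10 then passed, CD40LG (adjusted p = 0.0134), ITGB1, SCD, CGA, IFNG, KLF4, ANXA2, LCORL, ALDH2 and FAS (0.0472). In the processed table CD8 columns 1, 2 and 3 follow scanner files 3, 1 and 2. With that numbering, added later, the block gave 11.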
